A study of Sus scrofa with 10 samples.

Results

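The 38 genes described here encode enzymes of glycolysis, the pyruvate dehydrogenase (PDH) complex and the tricarboxylic acid (TCA) cycle, with the alternative isoforms of a step where more than one gene serves it. They were chosen by gene symbol: 21 act between glucose and lactate, 4 form the PDH complex and 13 belong to the TCA cycle. All 38 symbols matched a row among 25880 genes in the deposited expression table, with LDHB matching 2 gene models, so 39 gene models were followed. RNA was measured by RNA-seq in Northeast min pigs aged 60 days, with 1 library each from heart, psoas major, longissimus dorsi, liver, kidney, subcutaneous adipose tissue, lung, spleen and ovary. No treatment or genetic change is given for any group. How many animals were used, and whether the tissues came from the same animal, is not given in the labels. Because each tissue is a single library, replicate spread cannot be estimated, no error or p-value is given, and each value describes that library. A 10th library, from a pool of tissues, is left out of the comparisons.

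Glycolysis splits glucose into pyruvate in the cytosol and yields ATP quickly without oxygen, and lactate dehydrogenase (LDH) turns pyruvate into lactate and back. In mitochondria the PDH complex converts pyruvate to acetyl-CoA, which the TCA cycle oxidises to carbon dioxide while it loads the carriers that feed the respiratory chain. Many glycolytic steps are served by several genes whose products differ in kinetics, regulation and tissue. Fast skeletal muscle is known for a large glycolytic capacity, heart for oxidative metabolism that also takes up lactate, and liver and kidney for running part of the pathway in reverse to make glucose.

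Levels are in FPKM, fragments per kilobase of transcript and per 1000000 mapped fragments, and differences are on the scale log2(FPKM + 1). A gene was called detected at 1 FPKM or more. In bulk tissue, fewer cells of a type and less RNA per cell cannot be told apart. The tissue labels were compared with marker genes: the 7 hepatocyte markers summed to 61197 FPKM in liver, 6 kidney tubule markers to 4070 in kidney, 5 alveolar markers to 9268 in lung and 5 adipocyte markers to 8748 in adipose tissue, each the highest of the 9 tissues. The 7 measured fast fibre markers summed to 12999 FPKM in psoas and 22481 in longissimus but 1.73 in heart, and the 6 measured slow fibre markers to 22135 in heart, 5638 in psoas and 4477 in longissimus. Spacing of the values of short genes put the depth between 11.6 M fragments in kidney and 31.3 M in lung, uncertain by a factor of 2, so that 1 fragment on a 2000 bp transcript is worth between 0.016 and 0.043 FPKM. 9 members have a gene model of which at least 20% lies on another protein-coding gene (HK3, ALDOA, ALDOC, TPI1, GAPDH, ENO2, ENO3, PDHB and IDH3B), and since strand-specific counting is not stated, part of their value may belong to the neighbour.

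The enzymes divided along their pathways. 11 of the 21 glycolytic genes were highest in skeletal muscle (the mean of psoas and longissimus, 1 of 8 tissue classes), against 4.39% of the 15588 genes detected in at least 1 tissue. With median-of-ratios factors the 11 stayed 11, while the share of all genes was 15.1%. Of the 17 PDH and TCA genes, 15 were highest in heart, against 7.04% of all detected genes; the number was 14 with each library set to a sum of 1000000 and 13 with median-of-ratios factors, under which IDH2 and IDH3G were highest in skeletal muscle and the share of all genes highest in heart was 10.4%. In the deposited values the exceptions among the 17 were SUCLA2, highest in skeletal muscle, and SUCLG2, highest in kidney. A further 4 glycolytic genes were highest in heart, namely HK1, PFKL, PGAM1 and LDHB. PFKL was only 1.01-fold above kidney and LDHB 1.03-fold above adipose tissue, and with the second gene model of LDHB adipose tissue (530 FPKM) was above heart (476). The other 6 were spread out: PKLR in liver (background 5.66%), ALDOC in adipose tissue (6.72%), HK3 in lung (15.0%), PFKP in spleen (19.2%), and ENO1 and ENO2 in ovary (29.0%), while 13.0% of detected genes were highest in kidney as SUCLG2 was. With so high a background, the counts for lung, spleen, kidney and ovary do not stand apart.

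A stricter call, at least 2-fold above each other class, took in 10 members for skeletal muscle (GPI, PFKM, ALDOA, TPI1, GAPDH, PGK1, PGAM2, ENO3, PKM and LDHA), where 1.46% of detected genes passed. For heart it took in HK1, IDH3B and MDH1, where 1.56% passed. Liver led for PKLR alone (2.80% of genes) and adipose tissue for ALDOC alone (1.42%). On FPKM + 1, these muscle genes stood from 2.90-fold (GPI) to 21.1-fold (ENO3) above the next class. The 15 PDH and TCA genes highest in heart did so by less, from 1.06-fold (PDHA1, over kidney) to 2.57-fold (MDH1).

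**Figure D1:**
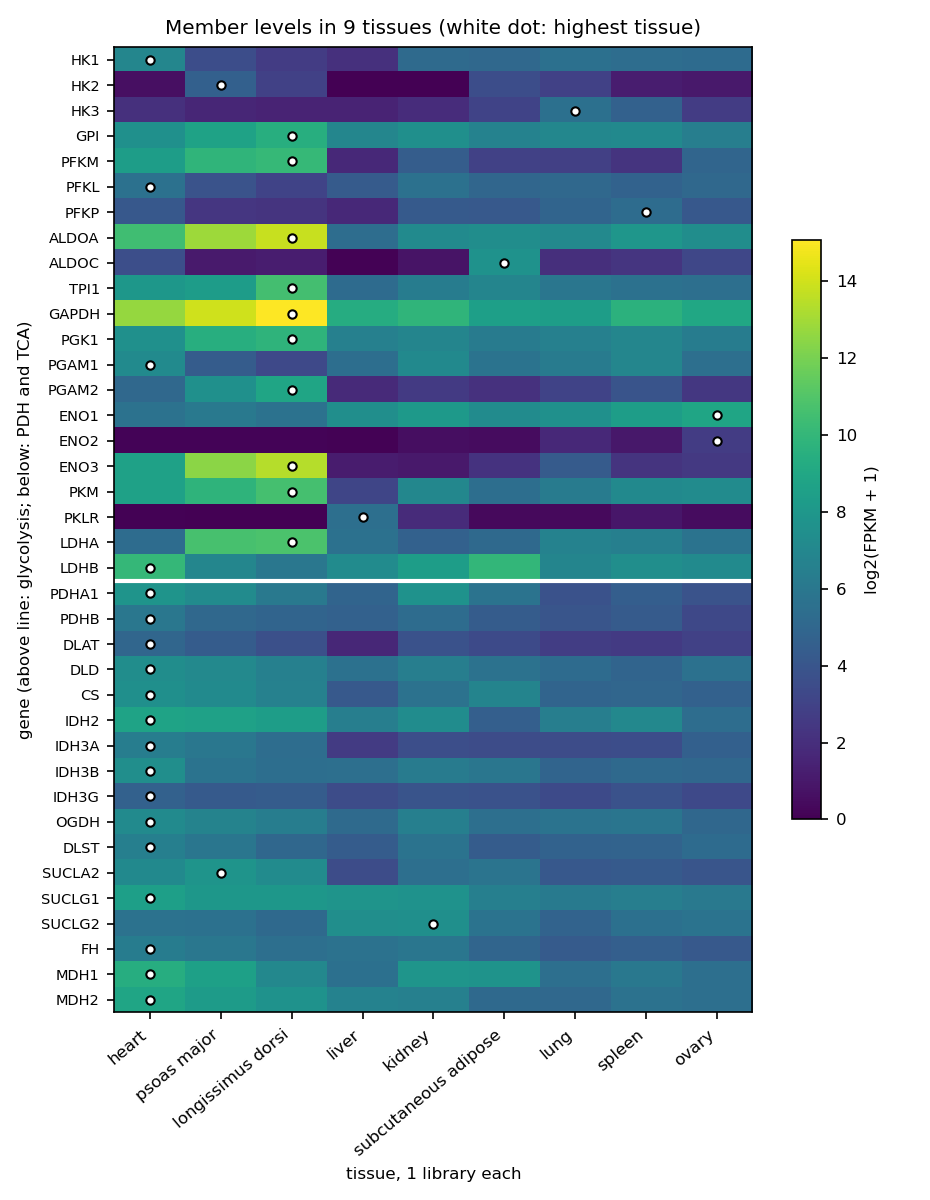
Level of each of the 38 genes in 9 tissues, as log2(FPKM + 1) in colour, with 1 library in each column; the white dot marks the tissue with the highest value and the white line parts glycolysis (21 genes, above) from PDH and TCA (17 genes, below). Below the line 15 of the 17 dots fall in the heart column for the deposited values, while those above it fall mostly in the muscles.

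Detection was broad. 34 of the 38 genes reached 1 FPKM in all 9 tissues, including 17 of 17 PDH and TCA genes and 17 of 21 glycolytic genes. Those that fell short somewhere were the isoforms HK2, ALDOC, ENO2 and PKLR. Glycolytic genes also varied more between tissues. The fold between the highest and the lowest tissue, computed on FPKM + 1, had a median of 27.8 over the glycolytic genes and 6.64 over the PDH and TCA genes, beside 4.90 over all detected genes. It ran from 2.56 for IDH3G, a regulatory subunit of isocitrate dehydrogenase, to 5235 for ENO3, the muscle enolase.

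The sums show how much of each library these genes occupied. Glycolytic genes made up 18.4% of the summed FPKM of longissimus, 10.8% of psoas and 3.42% of heart. In the other 6 tissues they made up between 0.427% (liver) and 0.848% (kidney). GAPDH alone held 9.36% of longissimus, 5.01% of psoas and 2.0% of heart. PDH and TCA genes took 1.03% of heart, 0.772% of psoas, 0.552% of kidney and 0.454% of longissimus, and between 0.168% and 0.293% elsewhere. The ratio of the glycolytic sum to the PDH and TCA sum was 40.5 in longissimus, 14.0 in psoas and 3.33 in heart, with its lowest values in kidney (1.54) and liver (1.55). Leaving out GAPDH, it was 19.9 in longissimus, 7.54 in psoas and 1.38 in heart. A ratio of sums within a library does not depend on how that library was scaled. It follows the most abundant genes: by medians over the genes, the PDH and TCA level minus the glycolytic level was 1.09 on the log2 scale in kidney, 0.91 in liver, 0.34 in adipose tissue, 0.31 in heart and 0.09 in longissimus, and −0.18 in psoas, −0.26 in ovary, −0.48 in spleen and −0.77 in lung.

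**Figure D2:**
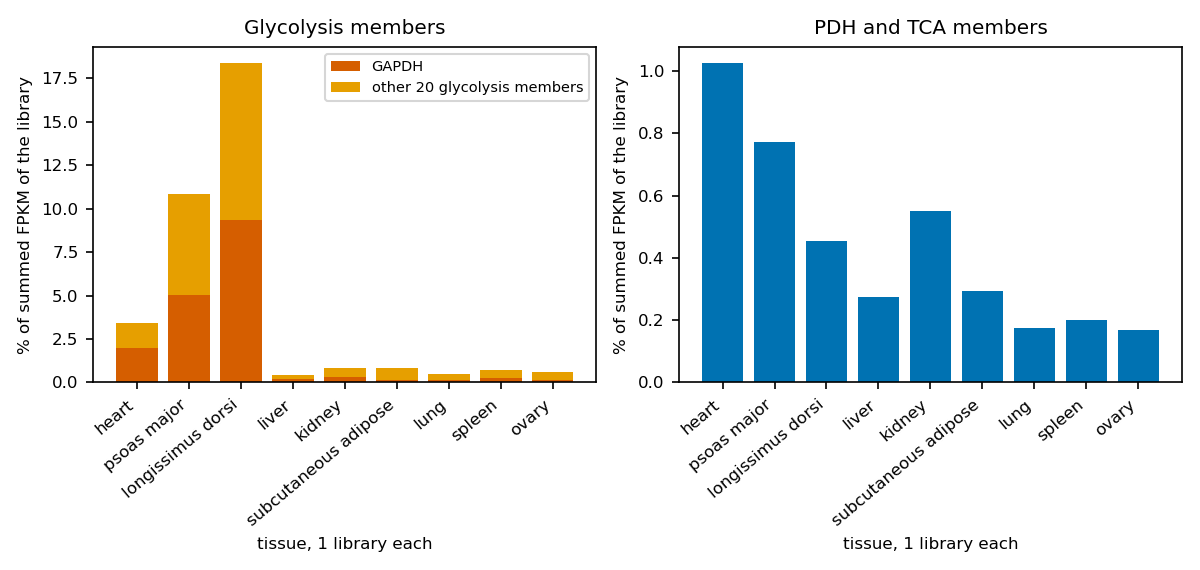
Percent of the summed FPKM of each library held by the 21 glycolytic genes (left, with GAPDH set apart) and by the 17 PDH and TCA genes (right), with 1 library for each bar and different vertical scales. Longissimus leads on the left with 18.4% and heart on the right with 1.03%.

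Summed over the isoforms among the 38 genes, 10 of the 11 glycolytic steps were highest in longissimus (9 with libraries set to a sum of 1000000, where LDH was highest in psoas), and the exception was the first. Hexokinases phosphorylate glucose and so trap it in the cell. HK1, the broadly expressed form, stood at 118 FPKM in heart, 45.4 in lung, 40.3 in spleen, 37.7 in ovary, 35.7 in kidney, 33.5 in adipose tissue, 10.8 in psoas, 5.29 in longissimus and 3.28 in liver. HK2, the insulin-responsive form of muscle and fat, was at 23.2 in psoas, 11.0 in adipose tissue, 6.59 in lung, 6.43 in longissimus, 1.36 in spleen and 1.05 in ovary. It was below 1 in heart (0.543) and kidney (0.0404) and listed at 0 in liver. The order of these genes thus turned over between heart and skeletal muscle: HK1 held 96.9% of the hexokinase sum in heart, while HK2 held 64.3% in psoas and 47.4% in longissimus. The sum itself was 122 FPKM in heart, 36.1 in psoas, 13.6 in longissimus and 5.10 in liver, so the muscle richest in the later glycolytic transcripts had the second lowest hexokinase sum.

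HK3, a hexokinase known from blood leukocytes, reached 47.0 FPKM in lung and 24.6 in spleen and lay between 1.82 and 7.09 in the other 7 tissues. Lung was the only tissue where it led, with 47.5% of the sum against 45.9% for HK1. The 9 myeloid markers summed to 783 FPKM in lung and 836 in spleen, and to between 26.2 and 165 elsewhere; their part in the HK3 values was not tested. UIMC1 covers 85.8% of the HK3 gene model and was at 8.93 FPKM in lung and 11.6 in spleen by its own model.

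Glucose-6-phosphate isomerase (GPI), which forms fructose 6-phosphate and has a single gene, was at 686 FPKM in longissimus, 404 in psoas and 187 in heart, and between 88.1 and 179 in the remaining 6 tissues. Phosphofructokinase commits the sugar to glycolysis and has a muscle (PFKM), a liver (PFKL) and a platelet (PFKP) form. PFKM was at 1117 FPKM in longissimus, 945 in psoas and 339 in heart, then 28.9 in ovary, 20.6 in kidney, 6.69 in adipose tissue, 6.13 in lung, 3.90 in spleen and 2.32 in liver. It held 99.0% of the step in longissimus, 98.2% in psoas and 84.0% in heart. PFKL ran from 7.22 in longissimus to 47.7 in heart and 47.3 in kidney, and led in liver (80.4%), adipose tissue, kidney, lung and ovary. PFKP led only in spleen, with 38.6 FPKM and 56.3%, followed by lung at 28.0 FPKM and 41.6%. Spleen and lung also had the highest marker sums for myeloid, lymphocyte and erythroid cells alike. The part of any of these cells in the PFKP values was not tested. The leading isoform therefore had 3 settings: PFKM in striated muscle, PFKL in most organs and PFKP in spleen. Outside striated muscle and liver the step was a mixture. PFKL held 56.1% in adipose tissue, 54.8% in kidney, 49.3% in lung and 41.6% in ovary, where PFKM held 37.0%. In spleen PFKL still held 38.1%.

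Aldolase cleaves the doubly phosphorylated sugar into a pair of triose phosphates. ALDOA, the muscle form, was at 14307 FPKM in longissimus, 7509 in psoas and 1397 in heart and between 40.3 (liver) and 239 (spleen) elsewhere. ALDOC, best known from brain, was at 203 FPKM in subcutaneous adipose tissue, 11.4 in heart, 8.13 in ovary, 4.11 in spleen and 3.09 in lung, and at or below 1.27 in both muscles, kidney and liver. In adipose tissue it exceeded ALDOA (169 FPKM) and held 54.6% of their sum, 16.5-fold above the next class on FPKM + 1. SPAG5 covers 80.6% of the ALDOC gene model. By its own model SPAG5 was listed at 0 in adipose tissue and at 6.10 FPKM in spleen and 5.41 in ovary. Its part in the ALDOC value was not tested. The 6 measured neural and Schwann cell markers summed to 13.7 FPKM in adipose tissue against 102 in ovary.

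Triose-phosphate isomerase (TPI1), which interconverts the pair of trioses, showed the largest difference between the skeletal muscles. It was at 1491 FPKM in longissimus, 322 in psoas, 249 in heart, 115 in adipose tissue and between 37.2 and 80.2 in the other tissues, so longissimus was 4.62-fold above psoas and psoas only slightly above heart. Parts of LRRC23 and SPSB2 lie within its gene model (39.2% and 21.4% of it). The SPSB2 model, which overlaps it, was also higher in longissimus (128 FPKM) than in psoas (68.8), and its part in the TPI1 value was not tested.

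The second phase of glycolysis regains ATP. GAPDH, which oxidises glyceraldehyde 3-phosphate and is a common reference gene, was at 34563 FPKM in longissimus, 15924 in psoas and 6586 in heart. It was at 926 in kidney, 812 in spleen, 654 in liver, 503 in ovary, 369 in adipose tissue and 339 in lung, a 102-fold range. PGK1, the first step to make ATP, was flatter, at 886 in longissimus, 703 in psoas, 191 in heart and 77.4 to 119 in the other tissues.

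Phosphoglycerate mutase, the next step, changed isoform between heart and skeletal muscle. PGAM2, the muscle form, was at 465 FPKM in longissimus and 189 in psoas, 33.7 in heart, 14.2 in spleen and between 2.50 and 7.18 elsewhere. PGAM1, the general form, was at 146 in heart, 139 in kidney, 118 in spleen and 75.1 in lung, then 53.6 in adipose tissue, 44.1 in ovary, 41.8 in liver, 19.6 in psoas and 8.84 in longissimus. PGAM2 held 98.1% of the step in longissimus and 90.6% in psoas, whereas PGAM1 held 81.3% in heart and between 89.2% and 96.6% in the other 6 tissues. Heart and the muscles differed less in the sum than in its makeup, with 180 FPKM in heart, 208 in psoas and 474 in longissimus.

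Enolase did not follow the mutase in heart. ENO3, the muscle enolase, was at 10825 FPKM in longissimus, 5645 in psoas and 389 in heart, 18.7 in lung and at most 4.74 in the other 5 tissues. ENO1, the general form, was at 473 in ovary, 339 in spleen, 270 in kidney, 193 in lung, 172 in liver and 151 in adipose tissue, and lowest in psoas (68.2), heart (50.7) and longissimus (50.5). ENO3 held 99.5% of the step in longissimus, 98.8% in psoas and 88.4% in heart, and ENO1 held at least 90.2% everywhere else. Heart thus had the muscle form for phosphofructokinase and enolase and the general form for hexokinase and phosphoglycerate mutase. ENO2, the neuronal enolase, peaked at 5.35 FPKM in ovary and 2.31 in lung and stayed below 1 in the other 7 tissues. LRRC23 covers 67.6% of the ENO2 model and was at 8.94 FPKM in lung and 0.856 in ovary, and the neural marker sum was also highest in ovary (102 FPKM, mostly UCHL1 at 95.9).

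Pyruvate kinase makes pyruvate and the last glycolytic ATP. PKM was at 1566 FPKM in longissimus, 907 in psoas, 398 in heart, 152 in ovary, 144 in spleen, 124 in kidney, 76.1 in lung, 43.4 in adipose tissue and 7.76 in liver. PKLR, the form of liver and red cells, was at 44.8 in liver and 2.62 in kidney and below 1 in the other 7 tissues. It held 85.2% of the step in liver, while PKM held at least 97.9% in each other tissue. Spleen had the highest erythroid marker sum (3185 FPKM, mostly HBB at 3102, against 153 in liver, mostly HBB at 151), with PKLR at 0.847.

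**Figure D3:**
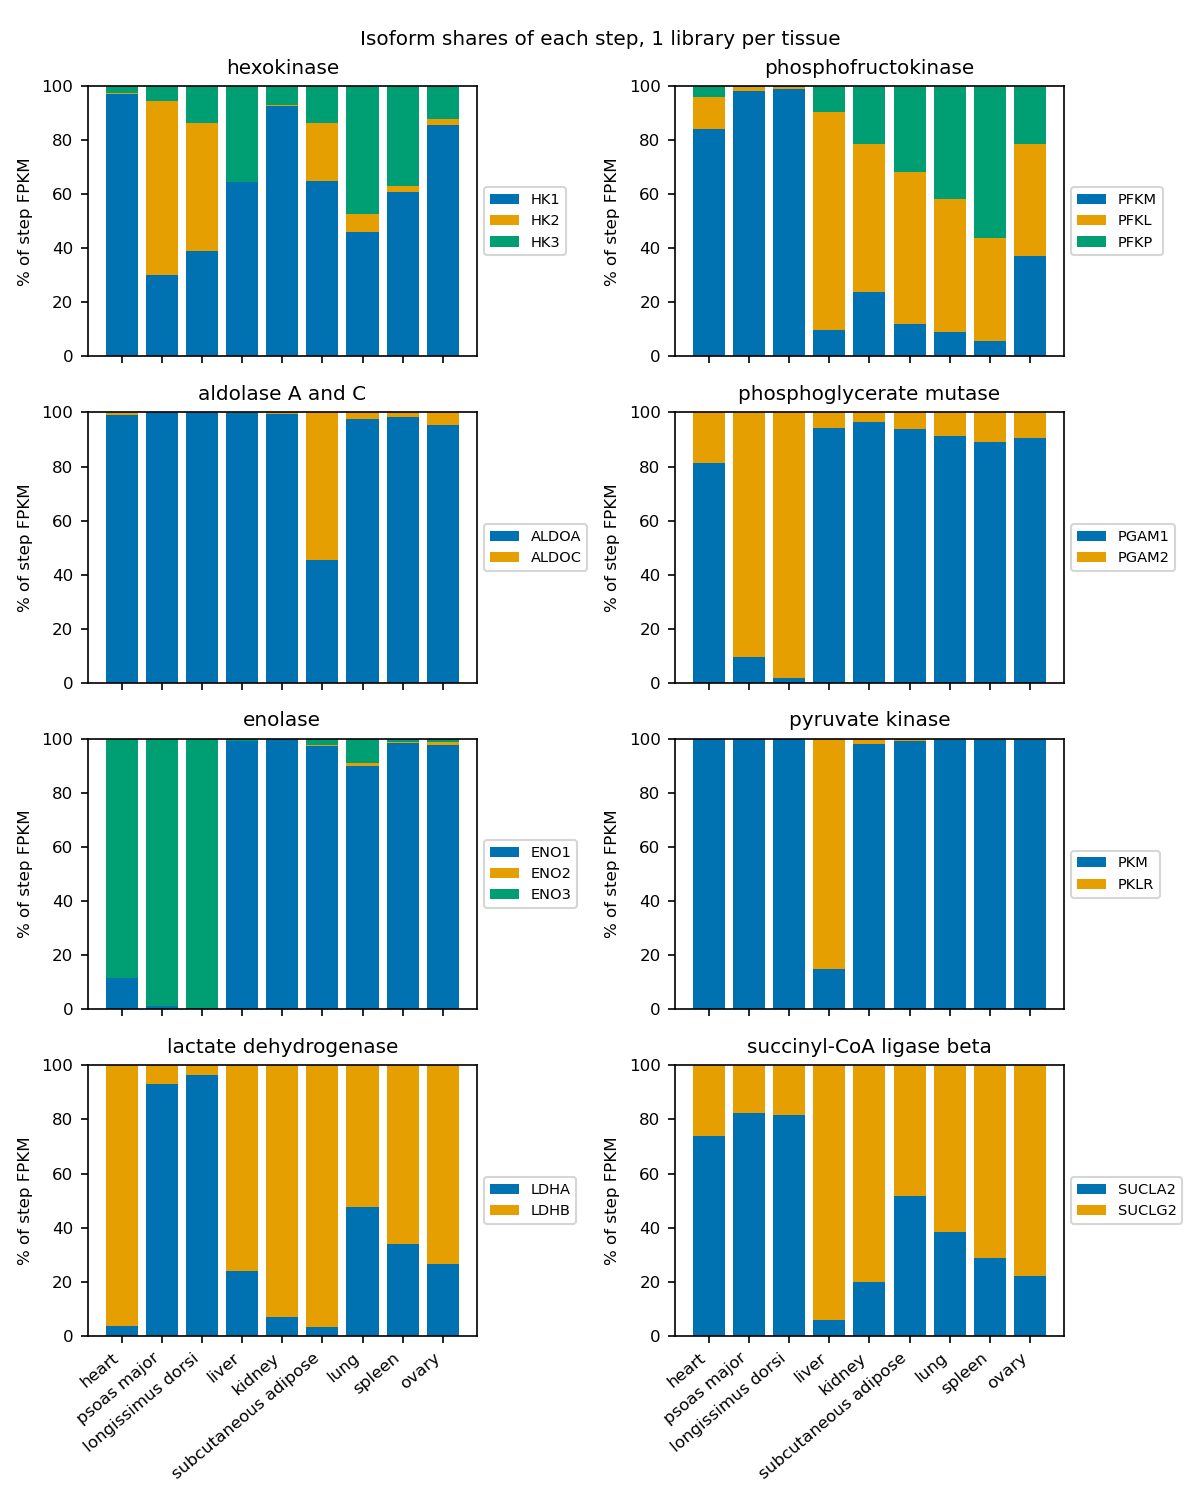
Share of each isoform in the summed FPKM of its step, in percent, for 8 steps in 9 tissues with 1 library each. One isoform held at least 75% in 53 of the 72 pairs of step and tissue, and the leading colour switches between heart and the muscles for hexokinase, phosphoglycerate mutase and LDH but not for phosphofructokinase or enolase.

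LDH is a tetramer of LDHA subunits, which favour lactate formation, and LDHB subunits, which favour its oxidation. LDHA was at 1800 FPKM in longissimus and 1630 in psoas, 103 in lung, 89.4 in spleen, 52.3 in ovary, 48.0 in liver, 39.0 in heart, 34.1 in adipose tissue and 25.0 in kidney. LDHB was at 1062 in heart and 1028 in adipose tissue, 341 in kidney, 174 in spleen, 151 in liver, 146 in ovary, 119 in psoas, 113 in lung and 63.3 in longissimus. The subunits were reversed between heart and skeletal muscle: LDHB held 96.5% of their sum in heart, 96.8% in adipose tissue and 93.2% in kidney, and LDHA held 93.2% in psoas and 96.6% in longissimus. On FPKM + 1, LDHA was 42.9-fold higher in the muscle mean than in heart, and LDHB was 11.6-fold higher in heart.

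These LDHB values come from a model on chromosome 2 (ENSSSCG00000032557, 12988754 to 12990030 on Sscrofa11.1) that carries the symbol LDHB in Ensembl but lies wholly on LOC407246, which RefSeq lists as a pseudogene. The RefSeq LDHB gene is on chromosome 5 (51810967 to 51831490), where the model ENSSSCG00000000576 was at 476 FPKM in heart, 530 in adipose tissue, 153 in kidney, 83.3 in spleen, 67.6 in liver, 63.2 in ovary, 54.8 in psoas, 47.9 in lung and 27.4 in longissimus. The chromosome 2 value was 1.94 to 2.36 times the chromosome 5 value in each of the 9 tissues, and how reads were split between such copies is not given, so the LDHB level is uncertain. With the chromosome 5 model LDHB held 92.4% in heart, 94.0% in adipose tissue, 86.0% in kidney, 3.25% in psoas and 1.5% in longissimus, and the reversal stood. It was below LDHA in lung (31.8% in place of 52.4%) and spleen (48.2% in place of 66.1%), and was 58.5% in liver and 54.7% in ovary.

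**Figure D4:**
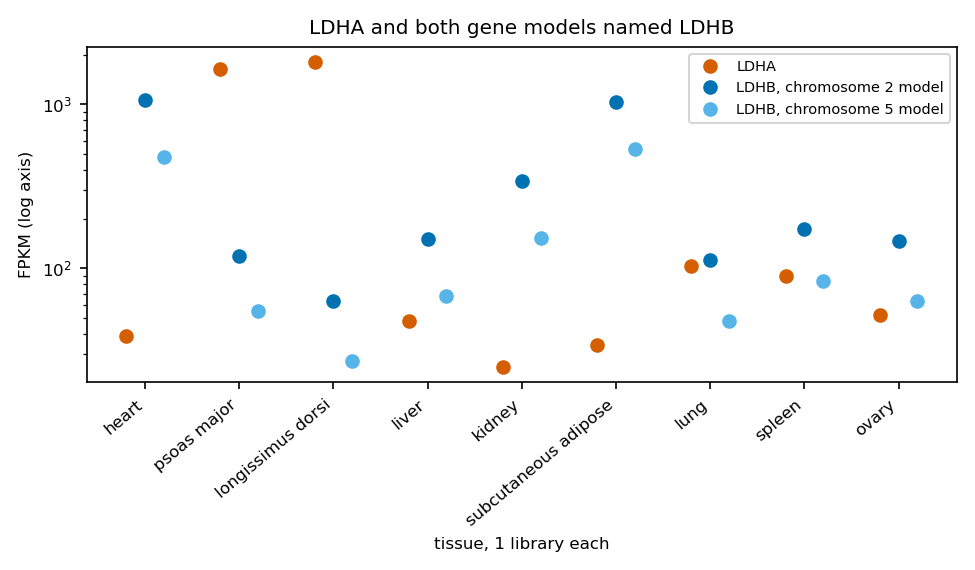
FPKM on a log axis of LDHA and of both gene models named LDHB in 9 tissues, with 1 library each. LDHA lies far above both LDHB models in psoas and longissimus and far below them in heart, kidney and adipose tissue, while in lung and spleen it lies between the chromosome 2 and the chromosome 5 values.

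The PDH complex links the pathways through its E1 (PDHA1 and PDHB), E2 (DLAT) and E3 (DLD) subunits. PDHA1 was at 223 FPKM in heart, 209 in kidney, 156 in psoas, 67.6 in longissimus, 53.2 in adipose tissue, 28.2 in liver, 22.2 in spleen, 13.8 in ovary and 12.7 in lung. PDHB was at 62.5 in heart, 39.8 in kidney and 33.0 in psoas, and lowest in ovary at 8.57. DLAT, the core acetyltransferase, ran from 30.1 in heart to 2.27 in liver, and DLD, which also serves the 2-oxoglutarate dehydrogenase complex, from 170 in heart to 28.6 in spleen. All 4 were highest in heart, but PDHA1 and PDHB, whose products pair in one enzyme, did not keep one ratio. It was 5.26 in kidney, 4.72 in psoas, 3.56 in heart and 2.46 in longissimus, and close to 1 in spleen (1.16), liver (1.15) and lung (0.869).

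In the first part of the TCA cycle, citrate synthase (CS) joins acetyl-CoA to oxaloacetate. CS was at 185 FPKM in heart, 149 in psoas, 109 in adipose tissue, 98.3 in longissimus, 50.6 in kidney, 30.8 in spleen, 28.0 in lung, 24.2 in ovary and 17.2 in liver, so adipose tissue stood beside the muscles. Isocitrate is then oxidised by the NAD-dependent enzyme of IDH3A, IDH3B and IDH3G, or by IDH2, which makes NADPH. IDH2 was at 435 in heart, 394 in psoas and 337 in longissimus, 159 in kidney, 128 in spleen, 86.9 in lung, 86.3 in liver, 41.3 in ovary and 22.9 in adipose tissue. Adipose tissue, above longissimus for CS, was thus lowest of all for IDH2.

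The IDH3 subunits did not move as a unit either. IDH3A, the catalytic subunit, was at 83.0 FPKM in heart, 60.9 in psoas and 40.1 in longissimus, 23.3 in ovary, and between 5.09 (liver) and 11.5 (kidney) in the rest. IDH3B was at 177 in heart, 77.3 in kidney, 58.6 in adipose tissue, 53.3 in psoas and 28.2 to 44.0 in the other tissues, longissimus included. IDH3G ran only from 9.03 in ovary to 24.7 in heart. The ratio of IDH3A to IDH3B was 1.14 in psoas and 0.957 in longissimus but 0.469 in heart and 0.115 in liver. NOP56 covers 48.7% of the IDH3B model and by its own model was at 33.2 FPKM in spleen and 15.4 in heart; its part in the IDH3B value was not tested.

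OGDH and DLST, subunits of the 2-oxoglutarate dehydrogenase complex, kept closer. OGDH was at 146 FPKM in heart, 104 in psoas, 89.3 in kidney and 83.0 in longissimus, down to 31.5 in ovary. DLST was at 88.4 in heart, 59.6 in psoas, 53.5 in kidney and 37.1 in ovary, and between 20.2 and 31.9 in the other tissues. Their ratio was between 1.65 and 2.60 in 8 tissues and 0.847 in ovary, the one tissue where DLST was the higher of the pair.

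Succinyl-CoA ligase, which makes ATP or GTP according to its beta subunit, had the sharpest isoform contrast of the cycle. SUCLA2, the ATP-forming subunit, was at 225 FPKM in psoas, 153 in longissimus, 142 in heart, 55.7 in adipose tissue, 45.3 in kidney, 18.4 in spleen, 17.1 in lung, 15.0 in ovary and 10.5 in liver. SUCLG2, the GTP-forming subunit, was at 182 in kidney and 174 in liver and between 27.2 and 53.0 in the other 7 tissues. SUCLA2 held 82.3% of the pair in psoas, 81.8% in longissimus and 74.0% in heart, and SUCLG2 held 94.3% in liver and 80.1% in kidney. Their ratio differed 76.7-fold between psoas (4.65) and liver (0.0606). The shared alpha subunit SUCLG1 was at 367 FPKM in heart, 252 in longissimus, 250 in psoas, 222 in liver and 201 in kidney, and between 68.2 and 88.7 in the other 4. Over the 3 genes liver (406 FPKM) and kidney (429) had totals close to that of longissimus (439), with the other beta subunit in the lead.

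Fumarase (FH) hydrates fumarate to malate and was at 80.4 FPKM in heart, 62.4 in psoas, 58.6 in kidney, 49.5 in liver and 44.3 in longissimus, and 17.4 to 28.9 elsewhere. MDH2 closes the cycle in mitochondria, and MDH1 is its cytosolic partner in the malate-aspartate shuttle. MDH2 was at 459 in heart, 303 in psoas, 207 in longissimus, 104 in liver and 94.8 in kidney, and between 32.7 and 50.9 in the rest. MDH1 was at 659 in heart, 381 in psoas, 227 in kidney, 213 in adipose tissue, 131 in longissimus, 63.9 in spleen, 46.5 in liver, 45.0 in lung and 43.8 in ovary. Cytosolic exceeded mitochondrial malate dehydrogenase most in adipose tissue, where MDH1 over MDH2 was 6.24, against 1.44 in heart, 1.26 in psoas, 0.633 in longissimus and 0.448 in liver.

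Heart and the skeletal muscles were compared next, as striated muscles of different use. Among genes at 1 FPKM or more in heart or in both muscles, 10 of 19 glycolytic members were at least 2-fold higher in both muscles than in heart (HK2, GPI, PFKM, ALDOA, GAPDH, PGK1, PGAM2, ENO3, PKM and LDHA), against 4.39% of 11115 genes. 6 glycolytic members were at least 2-fold higher in heart than in both muscles (HK1, PFKL, PFKP, ALDOC, PGAM1 and LDHB), against 11.4% of genes. In each of the 5 steps with members in both lists (hexokinase, phosphofructokinase, aldolase, phosphoglycerate mutase and LDH) the isoforms thus differed in opposite directions. Of the 17 PDH and TCA members, IDH3B alone passed in heart and none in muscle. The log2 differences of heart from the muscle mean nevertheless leaned to heart in 16 of 17, with SUCLA2 at −0.39 the exception and a median of 0.65. All genes also leaned to heart, with a median of 0.41, and the glycolytic median was −1.47. Scaling moves this background: heart had 72.2% of the calls in the deposited values and 48.6% once scaled by median-of-ratios factors, which brings the median of all genes to 0.01, the PDH and TCA median to 0.14 with 13 of 17 above 0, and the glycolytic median to −1.98. The glycolytic contrast was thus no smaller under that scaling, while the PDH and TCA median stood only 0.24 above that of all genes in the deposited values. DLST (1.00), PDHB (1.03), PDHA1 (1.11) and MDH1 (1.56) reached a log2 difference of 1 from the muscle mean, and DLAT (0.92) did not. None of them passed the call, which asks for that difference against each muscle, and PDHB came nearest at 0.90 against psoas. TPI1, higher in muscle, passed against longissimus (−2.58) but not against psoas (−0.37). The glycolytic medians cover all 21 members, with ENO2 and PKLR, below 1 FPKM in heart and both muscles. Those of all genes leave such low genes out.

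Between psoas and longissimus few members passed in either direction. Longissimus was at least 2-fold higher for TPI1 (4.62-fold), PGAM2 (2.46-fold) and GAPDH (2.17-fold), against 2.09% of the 10486 genes at 1 FPKM or more in either muscle. Psoas was at least 2-fold higher for HK2 (3.25-fold), MDH1 (2.89-fold), PDHA1 (2.28-fold) and PGAM1 (2.09-fold), against 4.66% of genes. ALDOA (1.91-fold) and ENO3 (1.92-fold) in longissimus and HK1 (1.88-fold) and LDHB (1.86-fold) in psoas fell just short. Within the glycolytic set the muscle isoforms PGAM2, ENO3 and ALDOA leaned to longissimus, and HK1, HK2, PFKL, PGAM1 and LDHB leaned to psoas. The median log2 difference of psoas minus longissimus was 0.51 for the PDH and TCA members, with 15 of 17 above 0. It was −0.07 for the glycolytic members, with 11 of 21 below 0, and 0.27 for all genes. ENO2 and PKLR, below 1 FPKM in both muscles, count among the 21 but not among all genes. Of the calls among all genes, psoas had 69.1% in the deposited values, 36.6% once scaled by median-of-ratios factors and 84.3% with each library set to a sum of 1000000. Under median-of-ratios scaling the PDH and TCA median was 0.13 with 11 of 17 above 0, that of glycolysis −0.33, and that of all genes −0.03. With each library set to a sum of 1000000 they were 0.72 with 17 of 17 above 0, 0.07 and 0.50, so the sign of the glycolytic median turned with the scaling. In the deposited values the fast fibre marker sum was higher in longissimus (22481 against 12999 FPKM). The slow fibre sum was higher in psoas (5638 against 4477 FPKM), the direction in which all genes leaned. Median-of-ratios factors, 0.686 for psoas and 0.528 for longissimus, would reverse the slow fibre order but not the fast fibre order. The part of fibre type in these differences was not tested.

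**Figure D5:**
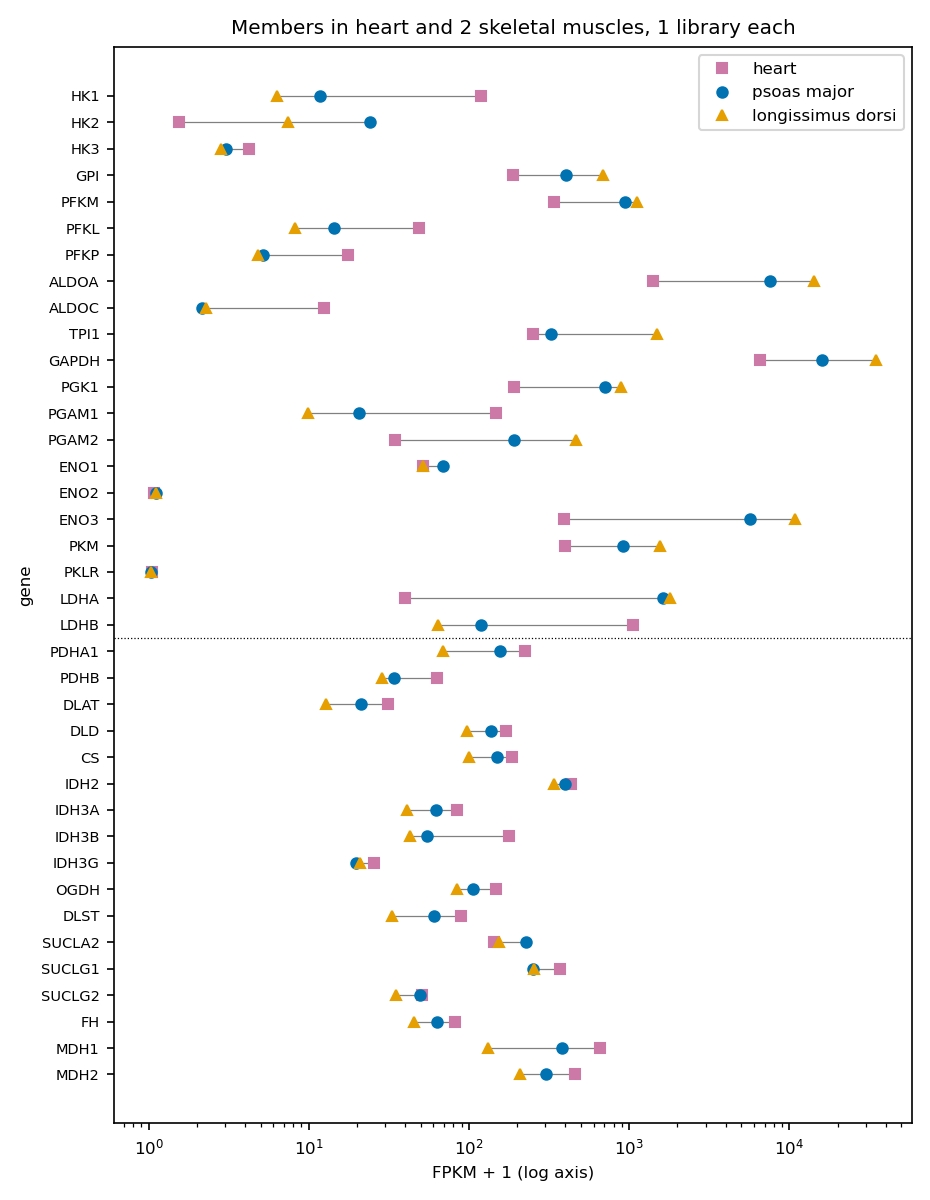
FPKM + 1 on a log axis of each of the 38 genes in heart (squares), psoas (circles) and longissimus (triangles), with 1 library each, and a dotted line between glycolysis and PDH with TCA. In 10 of the 21 glycolytic genes the order from low to high is heart, psoas, longissimus, against 6.97% of all 11115 genes compared. The opposite order holds in 14 of the 17 PDH and TCA genes and 7 glycolytic genes, against 51.4% of all genes. The 7 include PKLR, which was below 0.1 FPKM in heart and both muscles. PKLR and ENO2 are among the 21 but too low to be among the 11115.

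Genes around these enzymes came from lists of other pathway members. Of the 16 other PDH and TCA genes, 6 were highest in heart (7.04% of all detected genes) and 5 in adipose tissue (6.72%). SDHA of succinate dehydrogenase was at 435 FPKM in heart, 291 in psoas and 175 in longissimus, the order of most members. Pyruvate carboxylase (PC), which refills oxaloacetate, had another pattern, with 1041 in adipose tissue, 316 in kidney and 212 in liver and at most 13.4 in the other 6 tissues. The cytosolic isocitrate dehydrogenase IDH1 was at 210 in adipose tissue and 192 in liver, the mirror of IDH2 in the former. ACO1, IDH1 and SDHC were at least 2-fold higher in psoas than in longissimus, against 4.66% of genes. ME2 and ME3 were so in heart over both muscles, and 2 of 16 is near the 11.4% of all genes. PC and ME1 were so in both muscles over heart, against 4.39% of genes.

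Of the 8 detected other glycolytic genes, BPGM and LDHD were at least 2-fold higher in both muscles than in heart, against 4.39% of genes. LDHD, which oxidises D-lactate, was highest in kidney at 81.4 FPKM. Among 14 regulators of flux, 3 were highest in skeletal muscle (4.39% of all detected genes) and 5 in kidney (13.0%). PDK4, a kinase that inactivates PDH, was at 192 in longissimus, 133 in psoas and 115 in heart, and 11.2 in spleen. The fructose-bisphosphatase isoforms, which run the phosphofructokinase step backwards, differed by tissue too: FBP2 was at 340 in longissimus and 192 in psoas and listed at 0 in heart, and FBP1 was at 216 in kidney and 99.5 in liver. PFKFB3, which makes the activator of phosphofructokinase, was at 48.3 in adipose tissue and at most 8.13 elsewhere. PDP1, PFKFB1 and FBP2 were higher in both muscles than in heart by at least 2-fold, against 4.39% of genes. PFKFB2 and FBP1 were higher in heart, and 2 of 14 is near the 11.4% of all genes. PDPR and TIGAR were higher in psoas than in longissimus, against 4.66% of genes.

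Of the 11 detected genes of lactate transport and NADH shuttles, 5 were highest in skeletal muscle, against 4.39% of all detected genes. SLC16A3, a lactate exporter of glycolytic cells, was at 39.9 FPKM in longissimus, 33.9 in psoas and 3.20 in heart. It and GPD1 were at least 2-fold higher in both muscles than in heart, as LDHA was, against 4.39% of genes. SLC16A7, BSG and GPD1L were higher in heart by that threshold, against 11.4% of genes. In the malate-aspartate shuttle GOT1 was at 332 in heart, 234 in psoas and 78.3 in longissimus, an order shared with MDH1. GOT1 was the one gene of this list called in psoas over longissimus (4.66% of genes), with GPD2 called the other way (2.09%). Among 13 transcription factors tied to these pathways none passed between heart and both muscles. ESRRG and PPARGC1A passed in psoas over longissimus (4.66% of genes), the latter at 6.84 against 2.03 FPKM. MLXIPL, a sugar-responsive activator of PKLR, was at 37.2 in liver, 7.04 in adipose tissue and at most 4.89 elsewhere, and HNF4A at 94.3 in kidney and 50.0 in liver.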

How the data were processed

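The authors' deposited table gives 1 value per gene and library, read here as FPKM: the header names no unit, the values are not whole and StringTie is named. Per the submitters' processing notes, the build was Sscrofa11.1 and the tools were TopHat2 2.1.0 and StringTie 1.2.2. The annotation and strand setting were not given in the sources used here. Total RNA was extracted with TRIzol and sequenced after a TruSeq RNA preparation, per the labels' protocols. Without counts, no count model was run.

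Genes were named by their Ensembl identifiers (14857 genes) or by the RefSeq gene of the same assembly overlapping reciprocally by at least 0.5 (1714 genes), naming 64.0% of genes. Where 2 models shared a symbol, the one with the higher mean was used. Differences are on log2(FPKM + 1), which understates changes of low genes. The thresholds were 1 FPKM for detection, a 2-fold difference, and 75% of a step for a dominant isoform. The members and lists were chosen with earlier results of these data known. All 38 members are named, and genes of other lists only where they reached 10 FPKM in a tissue, except PDP1, PFKFB2 and TIGAR, named after their values were seen to complete a count. Alternatives varied the pseudocount, filter, scaling, threshold and LDHB model. The call of a leading class and the scaling factors were tested on simulated data with large planted changes. The calls between heart and the muscles, those between the muscles, and the isoform shares were not. A planned search of promoters for motifs was not run, since no promoter sequences were used here. Python 3.11.15, numpy 2.4.6, pandas 2.3.3 and matplotlib 3.10.9 were used. Results for some further genes of these pathways are not reported here.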

Additional observations from a re-analysis of the deposited data

Results flagged for a closer look

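The pool of tissues, which no comparison uses, is labelled as a mixture without adipose tissue. It read 38.6 FPKM for ALDOC, above the highest of the tissues it is labelled to hold (11.4 in heart) and below adipose tissue (203). It also read 9.85 FPKM for ENO2, above each of the 9 tissues (highest 5.35, in ovary). These values drew attention because a mixture should not exceed its parts. Their cause was not tested.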

How the results depend on the processing

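Of 82 alternative values for the counts that answer the comparisons, 73 lay within 1.5 times the count reported and 9 did not. Several of the 73 could hardly differ. A pseudocount cannot change which class is highest, and the naming and gene model settings touch only LDHB among the members. Keeping 9 tissues apart lowered the members led by skeletal muscle from 10 to 4, since the muscles then compete with each other. A 4-fold threshold lowered that count to 5, members led by heart from 3 to 0, glycolytic members higher in longissimus than psoas from 3 to 1, PDH and TCA members higher in psoas from 2 to 0, glycolytic members higher in both muscles than heart from 10 to 5, and PDH and TCA members higher in heart from 1 to 0. Median-of-ratios scaling moved the glycolytic members higher in longissimus from 3 to 7 and the PDH and TCA members higher in psoas from 2 to 1. It also moved IDH2 and IDH3G from heart to skeletal muscle and ENO1 and SUCLG2 to liver as highest class, leaving 13 PDH and TCA members highest in heart, and 5 of the 8 PDH and TCA steps, by their sums, in place of 8. The PDH and TCA minus glycolysis median level changed sign in psoas, from −0.18 to 0.036 with means and to 0.60 with the chromosome 5 model of LDHB (an alternative chosen after seeing the data), and in longissimus from 0.09 to −0.64 with means, which also moved heart from 0.31 to 0.98; the sign in these muscles is therefore not settled. That model also put LDHB below LDHA in lung (an LDHB share of 31.8%) and spleen (48.2%). No paired analysis was possible because each tissue has 1 library and the result comes from no test.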
